A study of Homo sapiens with 42 samples.

Results

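The Arp2/3 complex genes were followed through 42 sequencing libraries of MDA-MB-231 cells, an established human breast cancer line. The 9 genes ACTR2, ACTR3, ARPC1A, ARPC1B, ARPC2, ARPC3, ARPC4, ARPC5 and ARPC5L were chosen by name, out of 42145 genes with at least 1 entry in the tables. The libraries were made with QuantSeq REV, which reads the 3′ end of polyadenylated RNA, so that each read stands for 1 transcript end and levels do not scale with transcript length. There were 14 groups of 3 libraries. Poorly metastatic parental cells (Par) and LM2 cells, labelled highly metastatic to the lungs, were each split into cytoplasm and nuclei. Poorly metastatic cells labelled control (gCTRL) or HNRNPC knockdown (gHNRNPC) were split in the same way. Total RNA of LM2 cells was read at 6, 24 and 72 h, after 6 h in 3 µM of a compound labelled T4 in DMSO or in DMSO alone, with a change of medium before the later harvests. The labels do not give the means of knockdown or any clone, and the replicates are not said to be separate cultures, so p-values measure the spread between these libraries, which may be technical.

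The Arp2/3 complex starts a new actin filament as a branch on the side of an existing one. Arp2 and Arp3, encoded by ACTR2 and ACTR3, form the seed of the branch, ARPC2 and ARPC4 hold them together, and ARPC1, ARPC3 and ARPC5 complete the assembly. WASP and WAVE family proteins switch the complex on, and the branched networks push out the leading edge of moving cells. In human cells ARPC1A and ARPC1B are alternative forms of one subunit, and so are ARPC5 and ARPC5L.

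ARPC1A (GRCh38 chr7:99325910-99366262) and ARPC1B (chr7:99374249-99394816) are neighbours on the plus strand of chromosome 7. The other members lie at chr2:218217094-218254356 (ARPC2, plus), chr12:110434825-110450422 (ARPC3, minus), chr3:9792495-9807726 (ARPC4, plus), chr1:183620846-183635757 (ARPC5, minus), chr9:124862130-124877733 (ARPC5L, plus), chr2:65227753-65271253 (ACTR2, plus) and chr2:113889960-113962596 (ACTR3, plus), all from GENCODE 29. Each entry of the tables is named either by a transcript or by a position. The transcript entries named below carried all counts of ARPC1A, ARPC1B and ARPC3, all but 1 count of ARPC2 in each table and 96.1 to 98.7% of those of ARPC5. The last 30 bases of transcripts that name main entries are given below, read from the GENCODE 29 transcripts 5′ to 3′ as DNA. Capitals mark AATAAA, a form of the cleavage and polyadenylation signal, searched on the transcript strand only. ATTAAA was searched where AATAAA was absent, so the ATTAAA that overlaps the marked string in ARPC1A-201 is not marked.
ARPC1A-201: tccactagaaaattaAATAAAagaactgaa
ARPC1B-209: aactgtgtaaaaaaaaaaaaaaaaaaaaaa
ARPC5-204: agaaAATAAAatgtcagtgttgaataattt
ARPC5L-202: ttAATAAAgtgccaaacatttaataattga
ARPC3-203: ataagaataagtaatAATAAAgaaatttct
ARPC2-209: cttgcaaagacttcatagttcccaagaatt
ACTR2-201: gaaAATAAAatcagattttttcaaagtcaa
AATAAA starts 15 bases before the annotated end in ARPC1A-201 and ARPC3-203, and 26 to 28 bases before it in ARPC5-204, ARPC5L-202 and ACTR2-201. Neither letter string is in the last 30 bases of ARPC1B-209, which ends in a run of A, or of ARPC2-209. The run fills most of the window of ARPC1B-209, so whether a signal lies before it was not tested. Of the 66115 transcripts that name an entry and have at least 30 bases of sequence in GENCODE 29, 28.9% hold at least 1 string in this window. ARPC2-209 and ARPC3-203 are annotated as retained-intron transcripts and ARPC5-204 as a processed transcript, so a name marks the end at which reads were collected and not the protein made. The file names ARPC1A-201 in another version than GENCODE 29 does.

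Of the 9 genes, 8 were measured well enough to test. ARPC4 had at most 3 counts in any library and 14 counts in all 42, and did not pass the filter on low counts. This does not show that the gene was silent, and whether its reads stand under another entry was not tested. The readthrough gene ARPC4-TTLL3 had at most 3 counts as well, and AC004922.1, which spans ARPC1A and ARPC1B on the same strand, at most 5. ARPC1B also overlaps PDAP1 on the opposite strand, and the sources used here do not say whether strand was used in counting. ACTR3 had no count at the entry of its main transcript, ACTR3-201. Its reads stood at positions listed beneath it, most of all at 114715296, 114715723 and 114716171 on chromosome 2, as the files write them. Position entries of the members fall outside the GRCh38 spans of their genes, their build is not stated, and they are used here only as names. ACTR2 divided its reads between ACTR2-201, with 44.6 to 53.3% in the 3 tables, and position 65496245 on chromosome 2, with 44.1 to 51.8%. ARPC5L placed 73.2 to 80.0% of its reads at ARPC5L-202 and the rest at position 127639587 on chromosome 9.

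Libraries held 798052 to 2304698 counts, and levels are given as CPM, counts brought to a common library size, scaled by edgeR's TMM factors within each table. The markers of the line, VIM, CD44 and EGFR, were found in every library. ESR1 and PGR, which define hormone receptor tumours, had at most 1 count. ERBB2, listed with them as absent or low, reached 16 counts (12.7 CPM). Among markers of other cells, PTPRC (leukocytes) reached 2 counts, COL1A2 1 and VWF 2, and PDGFRA and CD3E had none in any library. COL1A1, CD68 and CD14 (up to 15 counts) were above this, with summed fibroblast markers at up to 8.99 CPM in LM2 and up to 1.44 in Par cytoplasm, and summed immune markers at 15.7 to 21.8 CPM in gHNRNPC and 4.86 to 8.16 in gCTRL cytoplasm. In nuclei the sums reached 61.3 CPM (fibroblast, LM2) and 137 CPM (immune, gHNRNPC). Nuclear MALAT1 was higher in nuclei, and so were 6 mitochondrial RNAs listed as cytoplasmic. Their summed level was 15324 to 18517 CPM in LM2 nuclei and 2192 to 2629 in LM2 cytoplasm, and 41418 to 50031 CPM in gCTRL nuclei and 259 to 811 in gCTRL cytoplasm. Nuclear fractions therefore carried mitochondrial RNA, and its part in the fraction results was not tested. HNRNPC, the target of the knockdown, was at 86.8 to 113 CPM in gHNRNPC and 490.3 to 549 in gCTRL cytoplasm. The third T4 library at 6 h stood apart, with a TMM factor of 0.499. So did the nuclear libraries numbered 2 of LM2 and Par, with factors of 0.722 and 0.731 beside 1.09 to 1.22 in the other 4 of that table, and with 3.83 and 3.55% of counts without a gene beside 1.21 to 1.94%. Without both, 1 call of a member was lost, that of ARPC5L between fractions of Par (-0.66 ± 0.30, adjusted p = 0.075), and none was gained. As in any bulk sample, fewer cells with an RNA and less of it per cell cannot be told apart.

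**Figure D1:**
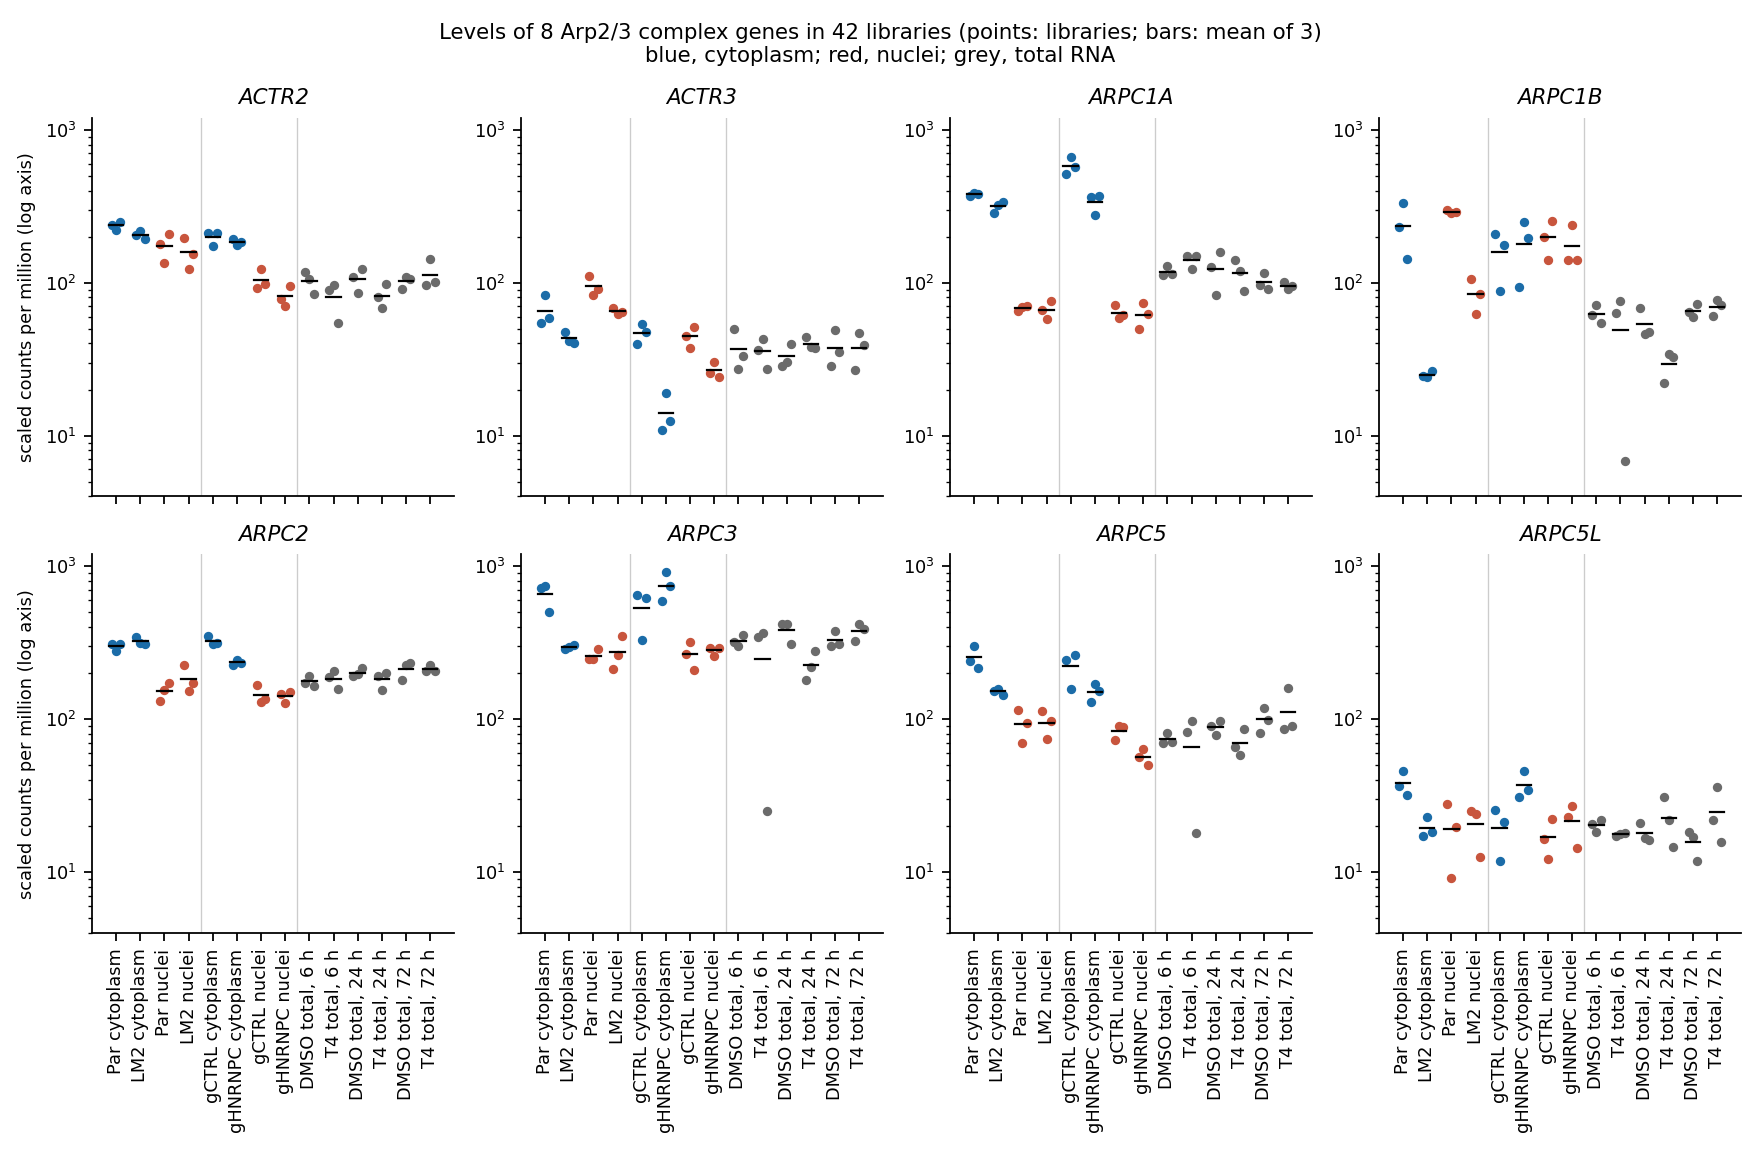
Scaled CPM (log axis) of the 8 tested genes in each of the 42 libraries, by group; points are libraries and bars the mean of 3. ARPC1A is high in every cytoplasm group and low in every nuclear group, ARPC1B is low in LM2 cytoplasm, and the third T4 library at 6 h is far below the others for ARPC1B, ARPC3 and ARPC5; ARPC4, with at most 3 counts in a library, is not drawn.

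ARPC1A was lower in nuclei than in cytoplasm of all 4 kinds of fractionated cells, and ARPC1B was called lower in none. ARPC1A was at 369, 388 and 381 CPM in Par cytoplasm and 65.3, 69.2 and 70.4 in Par nuclei. In gCTRL cells it was at 513, 663 and 568 CPM in cytoplasm and 71.0, 58.8 and 61.4 in nuclei. No cytoplasmic library overlapped a nuclear library of the same cells. The log2 change from cytoplasm to nuclei was -2.47 ± 0.15, adjusted p = 1e-07 in Par, -2.24 ± 0.14, adjusted p = 1.7e-07 in LM2, -3.19 ± 0.20, adjusted p = 5.1e-13 in gCTRL and -2.44 ± 0.20, adjusted p = 8e-11 in gHNRNPC cells (edgeR quasi-likelihood test, Benjamini-Hochberg over all genes). These are 5.55-, 4.72-, 9.11- and 5.43-fold lower levels in nuclei. ARPC1B, the form best known from blood cells, was different. It was at 232, 331 and 144 CPM in Par cytoplasm and 299, 287 and 289 in Par nuclei, groups that overlap, and its change there was 0.31 ± 0.25, adjusted p = 0.33. It was also not called in gCTRL (0.33 ± 0.38, adjusted p = 0.48) or gHNRNPC cells (-0.05 ± 0.38, adjusted p = 0.92). In LM2 cells ARPC1B was at 24.4, 24.1 and 26.3 CPM in cytoplasm and 105, 62.5 and 84.4 in nuclei, and rose 3.37-fold from cytoplasm to nuclei (1.75 ± 0.27, adjusted p = 0.00019).

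The share of ARPC1A in the counts of both genes does not depend on scaling between libraries and shows the same division. ARPC1A made up 61.4, 53.9 and 72.6% in Par cytoplasm and 17.9, 19.4 and 19.6% in Par nuclei. It made up 92.1, 93.0 and 92.8% in LM2 cytoplasm and 38.7, 48.0 and 47.2% in LM2 nuclei. In gCTRL cells it made up 71.2, 88.2 and 76.2% in cytoplasm and 26.2, 29.6 and 19.5% in nuclei. In all 4 kinds of cells the cytoplasmic and nuclear shares did not overlap, with ARPC1A the more abundant form in every cytoplasmic library and the less abundant in every nuclear one. The mean log2 ratio of ARPC1A to ARPC1B differed between nuclei and cytoplasm by -2.86 in Par, -3.95 in LM2, -3.55 in gCTRL and -2.46 in gHNRNPC cells. Each had p = 0.1 in a two-sided exact permutation test over libraries and 0.2 after adjustment over 22 balances, and 0.1 is the smallest p that 3 against 3 allows. In total RNA of LM2 cells in DMSO, ARPC1A made up 64.4, 64.3 and 67.7% at 6 h, 64.9, 64.3 and 77.1% at 24 h and 59.8, 66.1 and 55.7% at 72 h. All 9 of these libraries lay between the LM2 nuclear and the LM2 cytoplasmic shares, which come from another table.

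**Figure D2:**
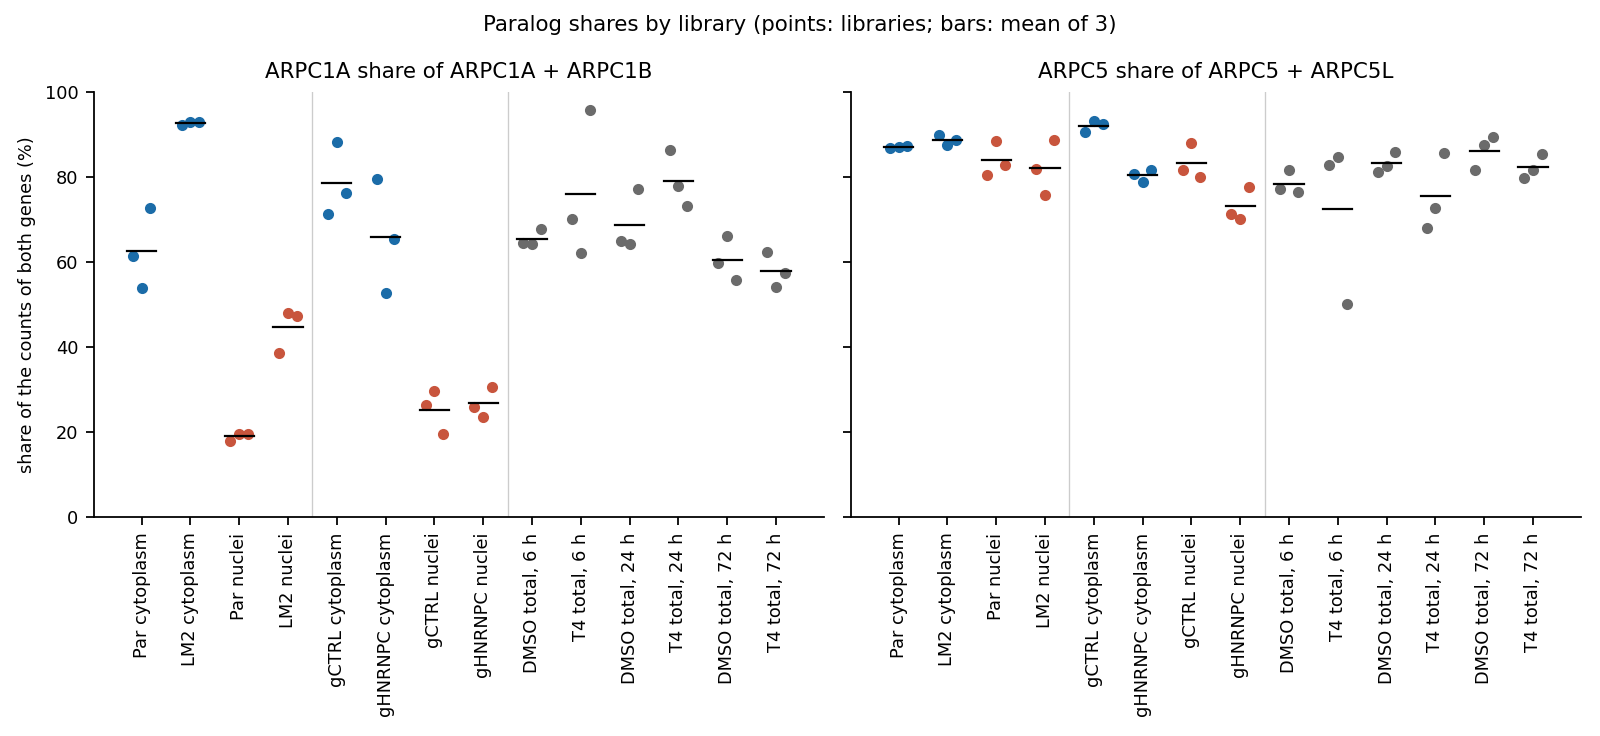
Share of ARPC1A in the counts of ARPC1A and ARPC1B (left) and of ARPC5 in the counts of ARPC5 and ARPC5L (right), in percent, per library with the mean of 3 as a bar. LM2 cytoplasm sits at 92.1 to 93.0% ARPC1A and Par nuclei at 17.9 to 19.6%; ARPC5 is the major form in every group mean.

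Between LM2 and Par cytoplasm, 3 of the 8 tested genes fell and none rose, where 12.1% of 8542 tested genes were called in either direction. The median log2 change of the 8 was -0.66, and that of all tested genes -0.02. ARPC1B fell most, from 232, 331 and 144 CPM in Par to 24.4, 24.1 and 26.3 in LM2, 9.42-fold lower (-3.24 ± 0.28, adjusted p = 3.8e-05). The Par libraries were spread more than the LM2 libraries, and the groups did not overlap. ARPC3, a small subunit that binds Arp3, was at 727, 749.8 and 503 CPM in Par and 286, 299 and 308 in LM2 cytoplasm (-1.15 ± 0.20, adjusted p = 0.0041). ARPC5, the subunit next to Arp2, was at 241, 303 and 218 CPM in Par and 154, 159 and 144 in LM2 cytoplasm (-0.74 ± 0.21, adjusted p = 0.037), again without overlap. The ARPC5 call was lost without any 1 of the 3 LM2 libraries or of the first 2 Par libraries, at adjusted p = 0.094 to 0.18, and by DESeq2 and limma. The paralog ARPC5L was at 36.6, 45.6 and 31.9 CPM in Par and 17.3, 22.9 and 18.3 in LM2 cytoplasm and was not called (-0.96 ± 0.35, adjusted p = 0.095). With transcript entries alone, which leaves out its position entry, edgeR called ARPC5L lower in LM2 (-1.82, adjusted p = 0.023). ACTR3 (-0.59 ± 0.19, adjusted p = 0.065), ACTR2 (-0.21 ± 0.19, adjusted p = 0.53) and ARPC1A (-0.27 ± 0.14, adjusted p = 0.23) were not called either. Their groups did not overlap. How often groups lie apart in this way over all genes was not counted, here or in the other comparisons, so a lack of overlap only describes the libraries. In a fit of these 6 libraries alone ARPC5L (-0.98, 0.0031), ACTR3 (-0.61, 0.019) and ARPC1A (-0.28, 0.046) also passed the threshold (log2 change, adjusted p by edgeR), which made 6 called members in place of 3. Calls over all genes rose in that fit as well, to 2533 from 1037 in the main fit. ARPC2, part of the core, differed least (0.11 ± 0.16, adjusted p = 0.74). The 6 mitochondrial RNAs, none of them called, summed to 2192 to 2629 CPM in LM2 and 1372 to 2145 in Par cytoplasm, and their part in these results was not tested.

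In nuclei 1 of the 8 genes differed between LM2 and Par cells, with 2.74% of 8542 genes called. It was ARPC1B, at 299, 287 and 289 CPM in Par and 105, 62.5 and 84.4 in LM2 nuclei, 3.47-fold lower (-1.79 ± 0.27, adjusted p = 0.0023). The 3 Par nuclei lay close together and far above the 3 LM2 nuclei. Without both nuclear libraries numbered 2 the change was -1.65 ± 0.30, adjusted p = 0.0054. ARPC3 was at 246, 249 and 288 CPM in Par and 213, 262 and 353 in LM2 nuclei, which overlap (0.08 ± 0.20, adjusted p = 0.97). ACTR3 was at 111, 83.0 and 91.1 CPM in Par and 68.5, 62.5 and 64.1 in LM2 nuclei, without overlap but not called (-0.55 ± 0.19, adjusted p = 0.2). The fibroblast marker COL1A1, the 1 of 3 that was tested, was called higher in LM2 in both fractions, with the list at 27.4 to 61.3 CPM in LM2 and 0 to 1.66 in Par nuclei, and its part in these results was not tested. The median log2 change of the 8 genes was -0.01 beside 0.01 over all. The LM2 effect in nuclei minus that in cytoplasm was 1.44 ± 0.37, adjusted p = 0.33 for ARPC1B and 1.23 ± 0.28, adjusted p = 0.33 for ARPC3. No member was called in this difference of effects, where 0.0% of 8542 genes were called by edgeR, 3 members had an unadjusted p under 0.05, and DESeq2 and limma called 0 members. With ARPC1A at 379 ± 9.89 CPM in Par and 315 ± 27.0 in LM2 cytoplasm (mean ± SD, n = 3), the log2 ratio of ARPC1A to ARPC1B was higher in LM2 by 2.87 in cytoplasm and by 1.78 in nuclei, both with p = 0.1 in the exact permutation test and without overlap.

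**Figure D3:**
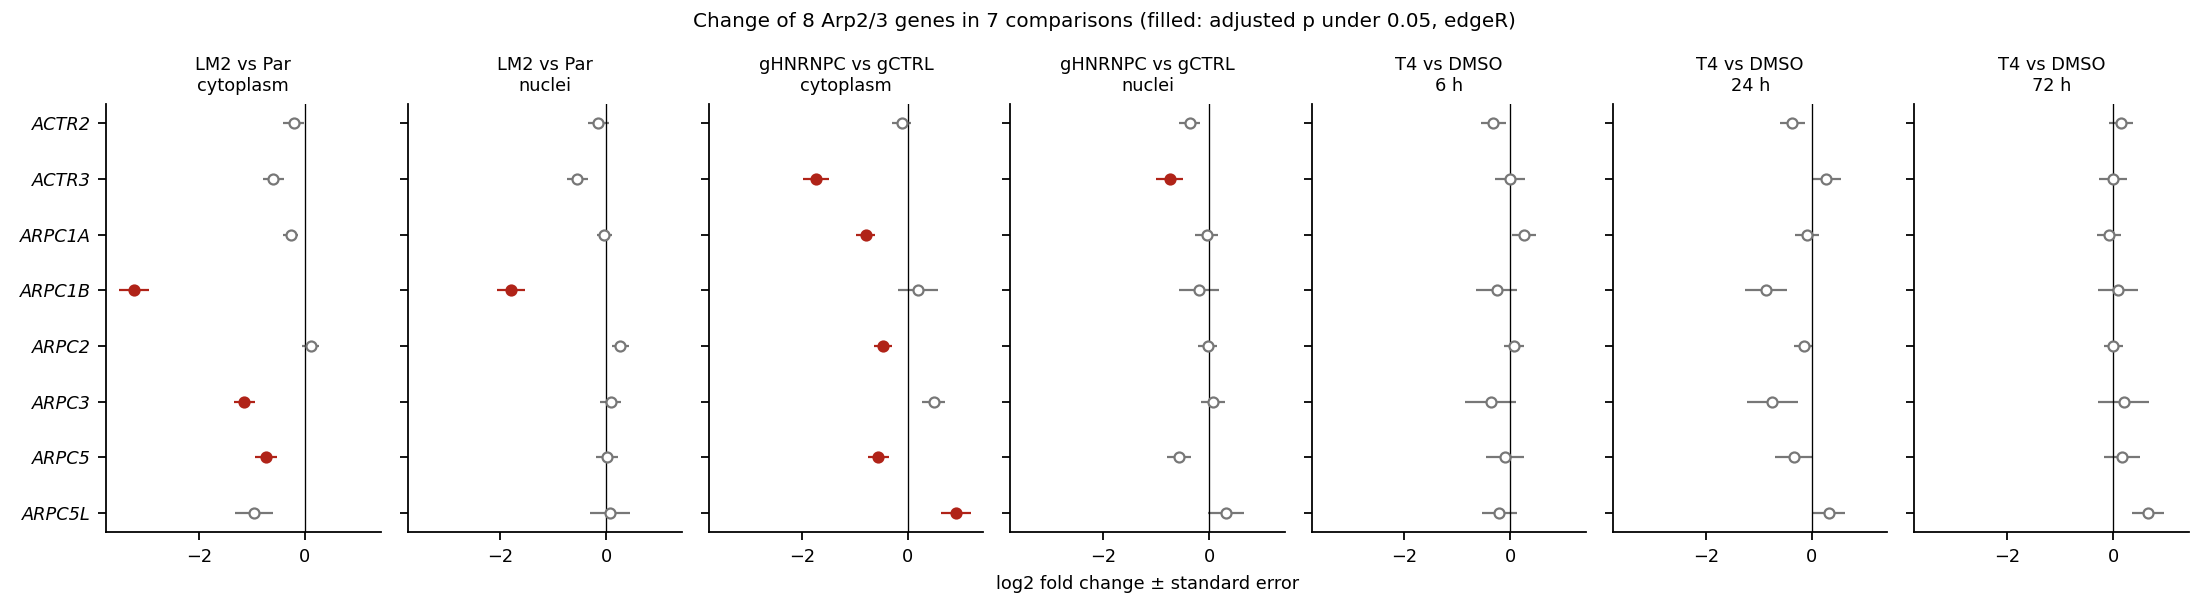
Log2 fold change ± standard error of 8 genes in LM2 against Par, gHNRNPC against gCTRL and T4 against DMSO; filled red points have an adjusted p under 0.05 (edgeR). ARPC1B is far to the left in both LM2 panels, ACTR3 in both knockdown panels, and no point is filled after T4; no called value changed sign under another scaling.

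HNRNPC knockdown changed 5 of the 8 genes in cytoplasm, with 24.7% of 9351 tested genes called. HNRNPC is a nuclear protein that binds nascent transcripts, and its own level fell in cytoplasm (-2.36 ± 0.19, adjusted p = 2.3e-09) and in nuclei (-2.44 ± 0.20, adjusted p = 2.1e-09). ACTR3 fell most, from 39.7, 53.5 and 47.4 CPM in gCTRL to 10.9, 18.9 and 12.4 in gHNRNPC cytoplasm, 3.33-fold lower (-1.73 ± 0.25, adjusted p = 1.2e-05). All 3 knockdown libraries were under all 3 controls. ARPC1A fell from 513, 663 and 568 to 365, 275 and 369.6 CPM (-0.79 ± 0.18, adjusted p = 0.0019), also without overlap. ARPC5L rose from 25.6, 11.9 and 21.3 to 30.9, 46.0 and 34.3 CPM (0.91 ± 0.28, adjusted p = 0.017), while its paralog ARPC5 fell from 244, 158 and 263 to 129.7, 171 and 152 CPM (-0.55 ± 0.19, adjusted p = 0.036), with groups that overlap. ARPC2 was at 349, 313 and 317 CPM in gCTRL and 227, 245 and 234 in gHNRNPC cytoplasm (-0.47 ± 0.17, adjusted p = 0.04). The ARPC2 call was lost without any 1 of the 6 libraries (adjusted p = 0.051 to 0.13). Leaving out 1 library also ended the call of ARPC5 (gCTRL 1 or 3, gHNRNPC 1 or 3, adjusted p = 0.099 to 0.18) and of ARPC5L (gCTRL 2 or gHNRNPC 2, 0.11 to 0.12). ACTR2 (-0.12 ± 0.18, adjusted p = 0.67), ARPC1B (0.19 ± 0.38, adjusted p = 0.75) and ARPC3 (0.50 ± 0.22, adjusted p = 0.094) were not called. The median over the 8 was -0.29, beside 0.01 over all genes.

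In nuclei after HNRNPC knockdown 1 of the 8 genes was called, and 14.8% of 9351 genes. ACTR3 was at 45.0, 37.5 and 51.5 CPM in gCTRL and 25.6, 30.2 and 24.2 in gHNRNPC nuclei (-0.74 ± 0.25, adjusted p = 0.046). The nuclei, too, did not overlap, but the call was lost without gCTRL 1 or 3 or gHNRNPC 1 or 3 (adjusted p = 0.071 to 0.14) and by DESeq2. ARPC1A, lower in knockdown cytoplasm, was at 71.0, 58.8 and 61.4 CPM in gCTRL and 49.4, 73.9 and 62.1 in gHNRNPC nuclei (-0.04 ± 0.22, adjusted p = 0.93). The knockdown effect in nuclei minus that in cytoplasm was 0.99 ± 0.36, adjusted p = 0.34 for ACTR3 and 0.75 ± 0.28, adjusted p = 0.35 for ARPC1A. In this difference 0.0214% of 9351 genes and no member were called by edgeR, 2 members had an unadjusted p under 0.05, and DESeq2 and limma called 0. The counts behind ACTR3 were low, between 12 and 172 per library over the series. Of the mitochondrial RNAs, 4 of 6 were called higher in gHNRNPC cytoplasm, where their sum was 635 to 1316 CPM against 259 to 811 in gCTRL. In nuclei 2 of 6 were called higher, with sums of 54098 to 61114 CPM in gHNRNPC and 41418 to 50031 in gCTRL. The immune markers CD68 (1.29 ± 0.28, adjusted p = 0.002) and CD14 (2.38 ± 0.57, adjusted p = 0.0052), the 2 of 4 that were tested, were called higher in gHNRNPC nuclei, with the list at 55.4 to 137 CPM in gHNRNPC and 30.4 to 38.1 in gCTRL, and CD68 was called higher in gHNRNPC cytoplasm too (1.59 ± 0.39, adjusted p = 0.0038). The part of these RNAs in the results was not tested.

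The share of ARPC5 in the counts of ARPC5 and ARPC5L was lower in every knockdown library than in any control of the same fraction, in a design of 3 against 3 that cannot pass 0.05. ARPC5 made up 90.5, 93.0 and 92.5% of both in gCTRL cytoplasm and 80.7, 78.8 and 81.7% in gHNRNPC cytoplasm, without overlap. In nuclei its share was 81.6, 88.0 and 79.9% in gCTRL and 71.3, 70.2 and 77.6% in gHNRNPC cells, again without overlap. The mean log2 ratio differed by -1.49 in cytoplasm and by -0.88 in nuclei, each with p = 0.1 in the two-sided exact permutation test (0.2 after adjustment over 22). The balance of ARPC1A and ARPC1B did not separate these groups. ARPC1A made up 71.2, 88.2 and 76.2% in gCTRL and 79.6, 52.6 and 65.3% in gHNRNPC cytoplasm, and the second gCTRL and the first gHNRNPC library had the highest shares of their groups, with ARPC1B at 88.6 and 93.9 CPM.

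After T4 none of the 8 genes was called by edgeR at any time, while 16.4% of 8035 tested genes were called at 6 h, 5.08% at 24 h and 0.236% at 72 h. DESeq2 and limma also called 0 members, and an unadjusted p was under 0.05 for 0 members at 6 h, for ARPC1B at 24 h and for ARPC5L at 72 h. ARPC1B was at 68.0, 46.2 and 47.4 CPM in DMSO and 22.1, 34.1 and 32.4 in T4 at 24 h (-0.86 ± 0.40, adjusted p = 0.19). ARPC3 was at 419, 418 and 309 CPM in DMSO and 179, 221 and 281 in T4 at 24 h (-0.75 ± 0.48, adjusted p = 0.33). For both genes every T4 library at 24 h was under every DMSO library. Both passed the threshold in a fit of the 6 libraries of 24 h alone (-0.97 and adjusted p = 0.0062 for ARPC1B, -0.86 and 0.0034 for ARPC3). Calls over all genes rose in that fit as well, to 2005 from 408 in the main fit. At 72 h ARPC1B was at 64.6, 59.5 and 72.1 CPM in DMSO and 60.8, 77.0 and 71.0 in T4, which overlap (0.09 ± 0.37, adjusted p = 0.96). ARPC5L was at 18.4, 17.0 and 11.9 CPM in DMSO and 21.9, 36.1 and 15.7 in T4 at 72 h, which also overlap (0.65 ± 0.30, adjusted p = 0.59). For ARPC1A and ARPC2, the log2 changes at the 3 times ran from -0.15 ± 0.18 (ARPC2 at 24 h) to 0.25 ± 0.23 (ARPC1A at 6 h).

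At 6 h 1 of the 3 T4 libraries stood apart. ARPC3 was at 346, 369.6 and 25.0 CPM in T4 and 320.4, 301 and 354 in DMSO. ARPC1B was at 63.7, 75.6 and 6.82 CPM and ARPC5 at 82.8, 97.1 and 18.2 in T4. The third library was far under the first 2 for these 3 genes but at 150.0 CPM for ARPC1A, beside 149 and 123 in the others. With it, the 6 h change was -0.37 ± 0.48, adjusted p = 0.62 for ARPC3, and without it 0.14 ± 0.18, adjusted p = 0.66. For ARPC1B it was -0.26 ± 0.39, adjusted p = 0.68 with and 0.16 ± 0.22, adjusted p = 0.66 without it. The T4 effect at 24 h minus that at 6 h was called for no member with all libraries (0 with an unadjusted p under 0.05, 0 by DESeq2 and limma), where 9.43% of 8035 genes were called. Without the third T4 library of 6 h it was -1.08 ± 0.30, adjusted p = 0.019 for ARPC1B and -0.95 ± 0.25, adjusted p = 0.014 for ARPC3. The effect at 72 h minus that at 6 h was called for no member by edgeR, with 9.72% of genes called, and again 0 members were under an unadjusted 0.05 or called by DESeq2 and limma. The largest of the members in that difference was ARPC5L (0.86 ± 0.45, adjusted p = 0.2).

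Between nuclei and cytoplasm 6 of 8 genes were called in Par, with 46.8% of 8542 genes called, 5 in LM2 (53.5%), 5 in gCTRL (62.2% of 9351) and 7 in gHNRNPC cells (55.4%). ARPC2 was lower in nuclei of all 4 kinds of cells, at 131, 156 and 174 CPM in Par nuclei and 312, 278 and 309 in Par cytoplasm (-0.96 ± 0.17, adjusted p = 0.00052). ARPC5 was also lower in all 4, from -0.68 ± 0.21 in LM2 to -1.43 ± 0.21 in Par. ARPC3 was lower in nuclei of Par (-1.34 ± 0.20, adjusted p = 0.00017), gCTRL (-0.99 ± 0.22, adjusted p = 0.00036) and gHNRNPC cells (-1.41 ± 0.22, adjusted p = 6.1e-06). In LM2 cells ARPC3 was at 213, 262 and 353 CPM in nuclei and 286, 299 and 308 in cytoplasm, which overlap (-0.11 ± 0.20, adjusted p = 0.66). ACTR2 was lower in nuclei of gCTRL (-0.93 ± 0.18, adjusted p = 8.1e-05) and gHNRNPC cells (-1.18 ± 0.19, adjusted p = 7.1e-06) and was not called in Par (-0.44 ± 0.19, adjusted p = 0.074) or LM2 (-0.38 ± 0.19, adjusted p = 0.11). With transcript entries alone, which leaves out its position entries, edgeR called ACTR2 lower in Par (-0.67, adjusted p = 0.017) and LM2 (-0.69, 0.013). It was also called without Par nuclei 3 (-0.61, 0.041) and without LM2 nuclei 1 (-0.58, 0.025). ACTR3, the partner of ACTR2 in the seed of the branch, was higher in nuclei of Par (0.54 ± 0.19, adjusted p = 0.035), LM2 (0.59 ± 0.20, adjusted p = 0.023) and gHNRNPC cells (0.92 ± 0.28, adjusted p = 0.0072). In gCTRL cells ACTR3 was at 45.0, 37.5 and 51.5 CPM in nuclei and 39.7, 53.5 and 47.4 in cytoplasm (-0.07 ± 0.22, adjusted p = 0.8). ARPC5L was lower in nuclei of Par (-0.97 ± 0.36, adjusted p = 0.041) and gHNRNPC cells (-0.79 ± 0.30, adjusted p = 0.025). Leaving out 1 library ended the calls of ACTR3 in Par (Par cytoplasm 1 or 3, nuclei 1 or 3, adjusted p = 0.062 to 0.15) and in LM2 (cytoplasm 2 or 3, nuclei 1 or 3, 0.053 to 0.085). The same held for ARPC5L in Par (any cytoplasm library, nuclei 2 or 3, 0.052 to 0.11) and in gHNRNPC cells (cytoplasm 2 or nuclei 3, 0.077 to 0.14), and for ARPC5 in LM2 (nuclei 2, 0.054).

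The median log2 change from cytoplasm to nuclei over the 8 genes was -0.97 in Par, -0.24 in LM2, -0.96 in gCTRL and -0.98 in gHNRNPC cells. Over all tested genes it was 0.07, 0.22, 0.06 and 0.02. The mitochondrial RNAs summed to 17714 to 20763 CPM in Par nuclei and 54098 to 61114 in gHNRNPC nuclei, above every cytoplasmic library, and their part in the fraction results was not tested. Levels of nuclei and cytoplasm are each relative to their own library, so that they do not give amounts per cell.

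**Figure D4:**
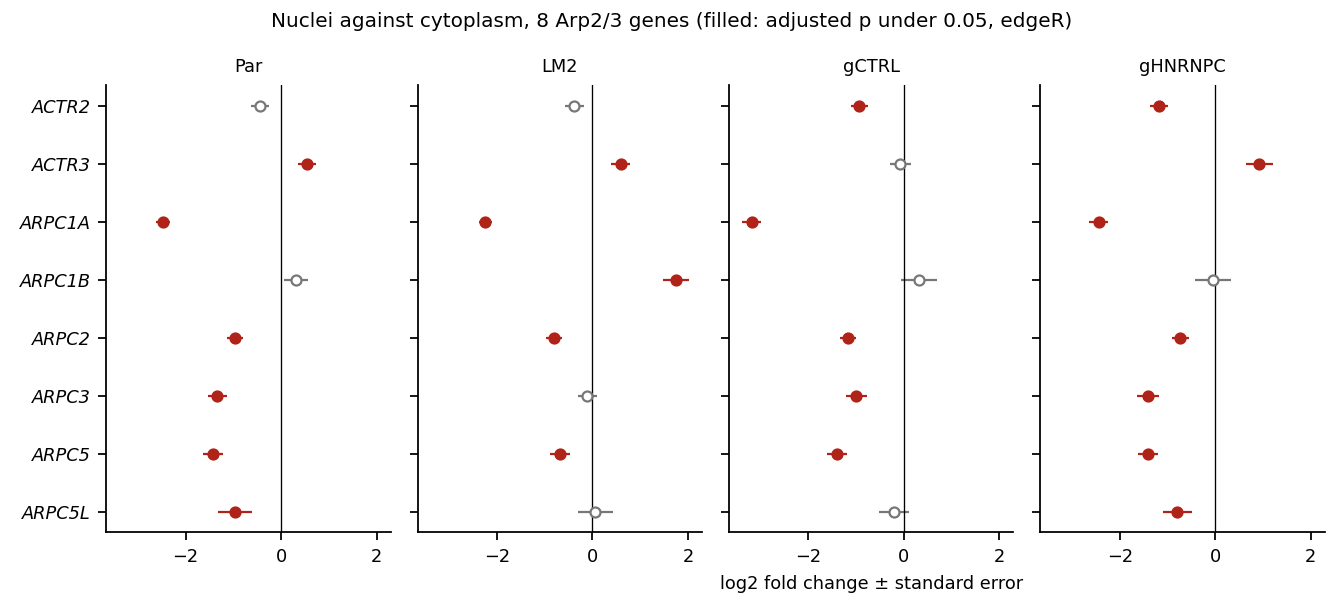
Log2 fold change ± standard error from cytoplasm to nuclei for 8 genes in 4 kinds of cells, each fitted on the 12 libraries of its table; filled red points have an adjusted p under 0.05 (edgeR). ARPC1A is the leftmost gene in every panel and ARPC1B lies at or to the right of 0 in Par, LM2 and gCTRL cells.

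Ends within a gene could be compared for ARPC5L, ACTR2 and ACTR3, with 7 entries in each table. In nuclei against cytoplasm, 2 of the 7 were called in LM2, where 9.88% of 3158 entries were called, and 2 in gCTRL cells, with 10.4% of 3593. One was the position entry of ARPC5L. It held 74.1, 48.6 and 56.2% of the ARPC5L counts in LM2 cytoplasm and 0, 5.00 and 22.2% in LM2 nuclei, from 20, 18 and 18 counts in cytoplasm and 0, 1 and 4 in nuclei. All 3 cytoplasmic shares were above all 3 nuclear shares. In gCTRL cells its share was 25.5, 59.1 and 31.1% in cytoplasm and 11.5, 5.26 and 2.94% in nuclei. Its use relative to the gene as a whole changed by -2.89, adjusted p = 0.011 in LM2 and -2.36, adjusted p = 0.031 in gCTRL cells on the log2 scale (edgeR diffSpliceDGE). The changes in Par (-0.85, adjusted p = 0.79) and gHNRNPC cells (-2.15, adjusted p = 0.11) were not called. The other called entry was ACTR3 position 114715723, which lies 427 bases after and 448 bases before its neighbours. Its share was 44.6, 55.2 and 59.2% in LM2 cytoplasm and 15.4, 32.7 and 16.3% in LM2 nuclei (-1.43, adjusted p = 0.035). In gCTRL cells it was 52.1, 63.6 and 37.0% in cytoplasm and 28.2, 31.0 and 12.8% in nuclei (-1.11, adjusted p = 0.031), with no overlap in either kind of cell. In Par (-1.21, adjusted p = 0.17) and gHNRNPC cells (-1.05, adjusted p = 0.28) it was not called by edgeR, while limma's diffSplice called it in Par. The 2 main ends of ACTR2 were not called in this comparison, with position 65496245 at 50.9, 49.0 and 46.1% in LM2 cytoplasm and 55.9, 61.8 and 54.3% in LM2 nuclei (0.22, adjusted p = 0.93).

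These end calls rest on few counts. In LM2 cells both calls were lost without cytoplasm 1 or nuclei 1. Without cytoplasm 2 or 3 or nuclei 3 the ARPC5L entry was called and the ACTR3 entry was not, and without nuclei 2 the reverse held. In gCTRL cells both calls were lost without cytoplasm 2 or nuclei 3, ACTR3 alone was lost without cytoplasm 1, and ARPC5L alone without cytoplasm 3 or nuclei 2. Of the 6 omissions in gCTRL cells, only that of nuclei 1 left both called. A position entry of ARPC5 entered the test and was called in the gCTRL omissions other than nuclei 3. Between LM2 and Par, gHNRNPC and gCTRL, or T4 and DMSO, edgeR called none of the 7 entries. An unadjusted p was under 0.05 for 1 between LM2 and Par cytoplasm and for 1 at 6 h of T4. Between LM2 and Par cytoplasm limma called 3, both ends of ARPC5L and ACTR3 position 114715723, and it called 0 in the others.

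**Figure D5:**
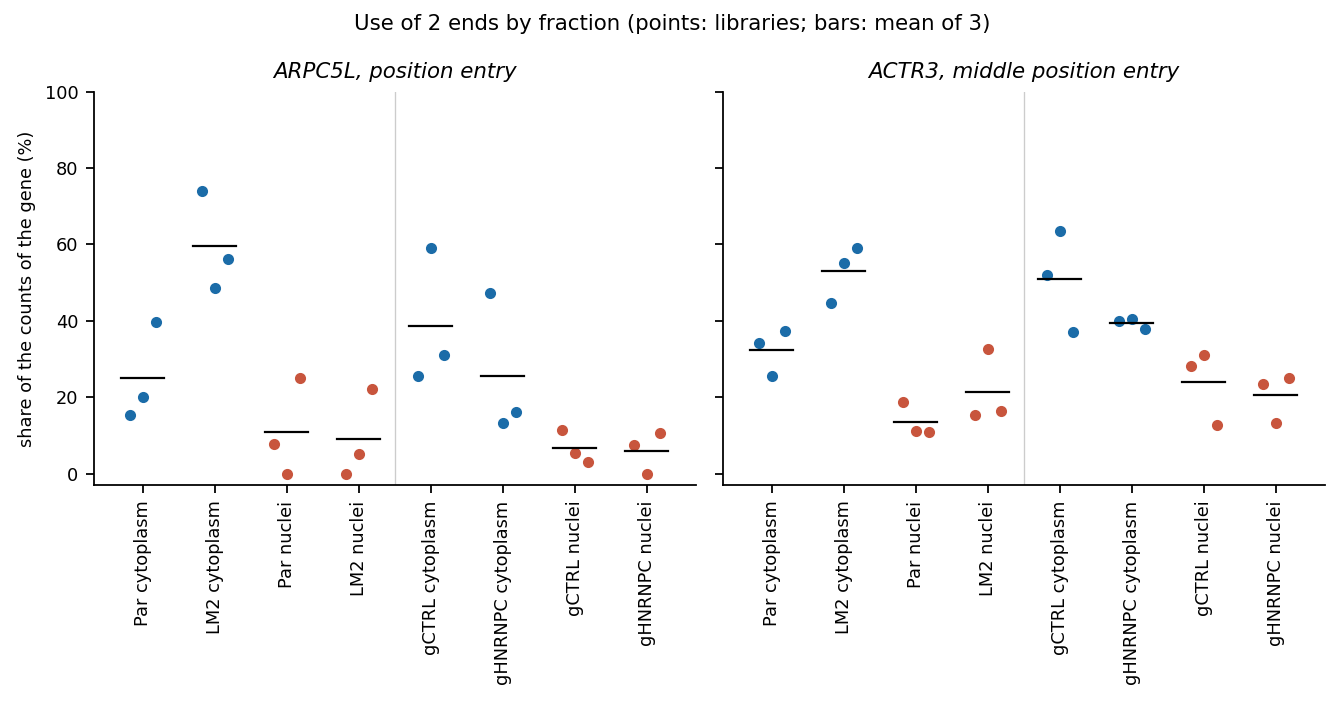
Share of the counts of ARPC5L at its position entry (left) and of ACTR3 at its middle position entry (right), in percent, in the 8 fraction groups; points are libraries and bars the mean of 3. LM2 cytoplasm lies at 48.6 to 74.1% for ARPC5L and LM2 nuclei at 0 to 22.2%.

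Genes that act on the complex or on actin were described from 4 lists. Among activators of Arp2/3 (WASP, WAVE and WASH assemblies and their partners), 19 of 26 were tested in LM2 and Par cells, and 0 rose and 2 fell in LM2 cytoplasm. Of all genes tested 12.1% were called, and the counts of the activators, inhibitors and other nucleators lie near that share. The 2 activators were CTTN, cortactin, which binds branch points (-1.59 ± 0.22, adjusted p = 0.0013), and WASF2, a WAVE protein (-0.97 ± 0.25, adjusted p = 0.026). Of 7 tested inhibitors and branch removers, 1 rose, CORO7 (1.22 ± 0.24, adjusted p = 0.0081). Among 12 tested nucleators and elongators of another kind, VASP fell (-1.12 ± 0.26, adjusted p = 0.018). In the list of actin and its turnover, 6 of 14 fell and 1 rose, with a list median of -0.53. The largest were TMSB4X, which binds actin monomers (-2.58 ± 0.50, adjusted p = 0.013), and CAPZB, which caps filament ends (-1.65 ± 0.34, adjusted p = 0.011). The medians of the other lists were -0.10 (activators), 0.37 (inhibitors) and 0.16 (other nucleators). In nuclei the medians of the 4 lists between LM2 and Par ran from -0.25 (turnover) to 0.28 (activators).

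After HNRNPC knockdown, 2 activators rose and 3 fell in cytoplasm (19 tested, median -0.01), with WASHC2A at 0.91 ± 0.23, adjusted p = 0.0054 and NCK2 at -1.02 ± 0.31, adjusted p = 0.018. Of all genes 24.7% were called, and the counts of the 4 lists lie near or under that share, apart from the 5 of 14 of the turnover list. CORO7 was the 1 of 6 inhibitors that fell (-1.73 ± 0.30, adjusted p = 0.00012; median -0.23). In the turnover list 5 of 14 fell and 0 rose (median -0.19), among them WDR1 (-1.43 ± 0.26, adjusted p = 0.00022), which helps cofilin take filaments apart, and ACTB, cytoplasmic actin (-0.99 ± 0.24, adjusted p = 0.0032). Of 12 other nucleators 2 fell and 0 rose (median -0.35), DAAM1 (-1.33 ± 0.24, adjusted p = 0.00016) and DIAPH3 (-1.05 ± 0.35, adjusted p = 0.027), both formins. At 6 h of T4, ACTB rose (1.24 ± 0.40, adjusted p = 0.041), and 2 of 18 activators fell, WASHC2C (-1.13 ± 0.38, adjusted p = 0.047) and WIPF2 (-0.72 ± 0.22, adjusted p = 0.031). Of 11 other nucleators SPIRE1 fell (-1.13 ± 0.25, adjusted p = 0.0046). Each of these list counts is under the 16.4% of all genes called at 6 h. These 6 h values include the library that stood apart, and its part in them was not tested. At 24 h, with 5.08% of all genes called, 1 of 18 activators fell, WASHC3 (-1.45 ± 0.36, adjusted p = 0.027), and 1 of 11 other nucleators rose, DAAM1 (1.45 ± 0.27, adjusted p = 0.0057).

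From cytoplasm to nuclei, activators went both ways, with 4 higher and 6 lower of 19 in gCTRL and in gHNRNPC cells, 1 higher and 5 lower in Par and 5 higher and 2 lower in LM2 cells. Each of these counts is under the share of all genes called there, 62.2, 55.4, 46.8 and 53.5% in that order. Of the other nucleators, the formin DIAPH1 was higher in nuclei of Par (1.58 ± 0.17, adjusted p = 1.4e-05), gCTRL (1.62 ± 0.18, adjusted p = 1.4e-08) and gHNRNPC cells (1.87 ± 0.19, adjusted p = 1.9e-09). In the turnover list 8 of 14 were lower and 0 higher in gCTRL cells (median -0.89), with ACTB at -1.99 ± 0.24, adjusted p = 8.8e-08, and 6 lower and 4 higher in LM2 cells, with TMSB4X higher (1.64 ± 0.48, adjusted p = 0.018). In Par cells 7 were lower and 1 higher, and in gHNRNPC cells 7 lower and 0 higher. The called part of this list was under the share of all genes called in gCTRL and gHNRNPC cells and over it in Par and LM2 cells.

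Over the means of all 14 groups, the genes most like ARPC1A among 6619 genes were ATP5PF (Pearson r = 0.978), PCNP (0.968) and TPT1 (0.968), on log2(CPM + 1) scaled by library totals. Those most like ARPC1B were TCAF1 (0.934), NDUFA1 (0.933) and SERINC2 (0.927). Between ARPC1A and ARPC1B r was 0.014. The groups share tables, fractions and cells, so these values only describe the pattern.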

How the data were processed

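QuantSeq REV 3'-end libraries of MDA-MB-231 cells were used as 3 tables of estimated counts, which the authors deposited per transcript or position entry. Salmon 0.14.1 and hg38 are named in the submitters' processing notes, and the role of each is not given in the sources used here. Estimated counts were rounded and summed per gene by GENCODE 29. A position entry was given to the transcript entry above it in the table, which is an assumption about the order of the entries. Entries without a gene, 0.934 to 4.23% of a library, were left out. Columns were given to samples by their names. The columns of Par cells are written MDAtr in the table and were taken as Par because that table sets LM2 against a single other kind of cell. Genes were tested per table with edgeR 4.0.16 (filterByExpr, TMM, glmQLFit with robust estimation, glmQLFTest) under R 4.3.3, with Benjamini-Hochberg adjustment over all genes tested and a threshold of 0.05. End use was tested with diffSpliceDGE, and the subunit balances, as log2(count + 0.5) ratios, with two-sided exact permutation tests over libraries (scipy 1.17.1). DESeq2 1.42.0, limma 3.58.1 (diffSplice for ends), other scalings, other filters, the replicate number as a block and leaving out each library were tried as alternatives, and the tests were checked on simulated counts. The named genes are all 9 members and, in each pathway list and comparison, at most the 2 largest changes past the threshold. The members and lists were chosen with earlier results of these data known, and 1 list is not reported here. Library totals, given with the results, set the precision. Labels do not say that replicates are separate cultures. Same-numbered libraries deviated together (all 3 correlations over 0.1) in LM2 against Par nuclei and in T4 against DMSO at 72 h. In both, the paired fit changed no call of a member.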

Additional observations from a re-analysis of the deposited data

How the results depend on the processing

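No called value of a member changed sign under any alternative run. Of 33 called member values, 22 kept their call in every alternative in which the gene could be tested. Of 2203 recomputed member values 2114 kept their side of the threshold, 74 lost a call and 15 gained one. Of the 2114, 123 changed sign with no call in either fit. Between LM2 and Par cytoplasm, 6 members were called with only the groups compared in the fit, where calls over all genes rose from 1037 to 2533. In gHNRNPC against gCTRL cytoplasm 3 were called with the replicate block and 3 to 4 without 1 library. With entries of the same annotation version only, 3 were called too. That setting leaves out ARPC1A and nearly all counts of ACTR3, so neither could be called, and no other member lost its call there. In the nuclei of that comparison 0 were called with no filter, the replicate block, DESeq2, limma with a pseudocount of 1 or only the groups compared, and 0 to 1 without 1 library. The same version gave 0 there too, but it leaves out ACTR3, the only member called in the main fit. At 24 h of T4, 2 were called with only the groups compared, where calls over all genes rose from 408 to 2005. In the 24 h minus 6 h difference 0 to 2 were called without 1 library. Between nuclei and cytoplasm the same version left 3 in Par and 3 in LM2, where neither ARPC1A nor ACTR3 can be given, and library totals left 2 in LM2. Same-numbered libraries did not deviate together in every pair of these comparisons. For end use, limma called 3 entries between LM2 and Par cytoplasm, and between fractions 2 in Par, 4 in LM2 and 4 in gCTRL. Entries with a mean of at least 10 counts gave 0 in gCTRL. Without 1 library there were 0 to 1 in LM2, 0 to 3 in gCTRL and 0 to 2 in gHNRNPC cells. With transcript entries alone, the ARPC5 to ARPC5L balance was 1.12 in place of 0.22 (LM2 cytoplasm), -1.76 for -1.49 (knockdown cytoplasm), 1.12 for -0.30 (T4 6 h, a change of sign), and, between fractions, -2.06 for -0.73 in LM2, -1.94 for -1.21 in gCTRL and -1.11 for -0.60 in gHNRNPC cells. The cause of these moves was not tested. Counts over all genes moved more, from 289 to 2533 (1037 in the main result) between LM2 and Par cytoplasm, 39 to 311 (234) in nuclei, 421 to 1774 (1320) at 6 h of T4, 146 to 2005 (408) at 24 h and 5 to 83 (19) at 72 h. Library totals shifted the median of all genes by -0.40 at 6 h and -0.20 at 24 h of T4, and by 0.14 in knockdown cytoplasm.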

Other observations

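Deviations from the group mean on the log2 scale were compared between members over all 42 libraries, as a description. ARPC1B, ARPC3 and ARPC5 deviated together, with r = 0.83 for ARPC1B with ARPC3 and 0.83 for ARPC1B with ARPC5. Without the 3 libraries of T4 at 6 h, an alternative chosen after seeing the data, the values over 39 libraries were 0.44 and 0.55. Other pairs moved to differing degrees, ARPC5 with ACTR2 from 0.72 to 0.64 and ARPC2 with ACTR2 from 0.59 to 0.52. Larger moves were those of ARPC3 with ARPC5 from 0.83 to 0.43, ARPC3 with ACTR2 from 0.49 to 0.15 and ARPC1B with ACTR2 from 0.40 to 0.05. ARPC1B had r over 0.5 with 26.3% of 6618 other genes over 42 libraries and with 11.2% over 39. ARPC1A did not deviate with ARPC1B, with r = -0.16 over 42 libraries and -0.11 over 39. For ARPC2 the r to ARPC1B was 0.33 and 0.11, and for ARPC5L 0.23 and 0.40. The libraries share tables and depth, so no test is given.

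ACTR3B, a relative of ACTR3 from another gene, was found in every table with medians of 11.8 to 20.1 CPM, and ACTR3C had at most 1 count in a library. The share of ARPC1B in the counts of all 9 genes was 1.81 ± 0.091% in LM2 cytoplasm and 25.3 ± 1.87% in Par nuclei (mean ± SD, n = 3).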
